A study of Mus musculus with 4 samples.

Results

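Troponin is the calcium switch of striated muscle. On the thin filament of the sarcomere, troponin C binds calcium, troponin I holds the filament in its relaxed state until calcium arrives, and troponin T anchors the complex on tropomyosin. Each subunit is encoded by several genes, and the fetal heart is known for using the slow skeletal troponin I before the cardiac form takes its place after birth. The 6 genes described here were chosen by symbol: *Tnni1* (slow skeletal troponin I), *Tnni2* (fast skeletal troponin I), *Tnni3* (cardiac troponin I), *Tnnt1* (slow skeletal troponin T), *Tnnt2* (cardiac troponin T) and *Tnnc1* (the troponin C of slow skeletal and cardiac muscle). They are 6 of the 32285 genes counted in 4 single-cell RNA sequencing libraries of mouse ventricles at E14.5.

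Control embryos carried *Tie2*Cre and 1 floxed *Ets1* allele (*Tie2*Cre;*Ets1* fl/+). *Ets1* eKO embryos carried *Tie2*Cre and 2 floxed alleles (*Tie2*Cre;*Ets1* fl/fl). The Cre was thus present in both groups, and it acts in endothelial and endocardial cells and in blood lineages, not in cardiomyocytes. There were 2 libraries in each group, each made from the pooled ventricles of 3 embryos, with embryo sex not recorded and 1 batch label for all, so that every p-value measures the spread between pools only. The comparison asks how the troponin genes of cardiomyocytes stood when *Ets1* was deleted in the endothelium.

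The libraries held 7949 to 14951 cell barcodes, and 37913 of 45551 cells were kept after the cell filter and the removal of 3650 predicted doublets. The median depth of the kept cells was 8788.5 and 8680 UMIs (unique molecular identifiers, 1 per captured transcript) in controls and 8402 in the first *Ets1* eKO library, while *Ets1* eKO replicate 2 was the shallowest at 5360. Pairs of libraries shared 17 to 33 barcodes. Of the kept cells, 2571 to 5565 in a library were cardiomyocyte-like. *Ets1* itself stood at 309 and 278 CPM (counts scaled to a common total of UMIs) in the endothelial-like cells of controls and at 134 and 102 in those of *Ets1* eKO, a log2 fold change of -1.25 (SE 0.14, edgeR adjusted p = 0.00624). Where the floxed exons lie relative to the 3′ tags is not given in the sources used here.

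Cardiomyocyte-like cells were clustered with all troponin genes left out, so that the classes were not drawn by the genes described. Compact-like cells (966, 492, 719 and 967 cells in the 2 control and then the 2 *Ets1* eKO libraries, by replicate number, the order used throughout) had the highest *Hey2*, a compact zone transcription factor, at 90.3 to 109 CPM. Trabecular-like cells (624, 319, 412 and 772) held *Nppa*, the atrial natriuretic peptide, at 9013 CPM or more, and *Bmp10* at 77.5 to 124. Hybrid cells (326, 168, 243 and 855), a cluster named by a rule set after the clusters were seen and led by *Tnni2* itself along with *Acta1* and *Ckm*, combined *Hey2* at 54.9 to 77.3 with *Nppa* at 986 to 3813 CPM. Other markers did not all follow, and *Bmp10* stood at 6.37 to 13.4 CPM. The 5 compact markers summed to 473, 455, 383 and 326 CPM, below the 607, 587, 519 and 376 of trabecular-like cells. *Prdm16* and *Tbx20* were lower than in trabecular-like cells in every library, and *Hey2* and *Mycn* higher. Cycling cells (1606, 784, 1245 and 2098) held the topoisomerase gene *Top2a* at 502 to 675 CPM. Atrioventricular canal (AVC)-like cells (408, 442, 314 and 394) held *Rspo3* at 379 to 538 and *Bmp2* at 101 to 185 CPM. The AVC-like class joined 3 clusters, C7, C8 and C9, in unequal shares: C7, which also had the atrial gene *Sln* among its leading genes, gave 130, 143, 180 and 232 cells, C8 gave 225, 149, 124 and 133, and C9 gave 53, 150, 10 and 29. The 5 genes of the atrial marker list summed to 7126 and 6751 CPM in AVC-like cells of controls and to 9194 and 9557 in those of *Ets1* eKO, each of the 5 genes being higher in both *Ets1* eKO libraries. A further cluster, C4, of 2004 cells (691, 350, 540 and 423) led by *Gpc5*, was larger than the hybrid cluster in every library but *Ets1* eKO replicate 2. It passed no marker list and kept no name. Neither did C10, of 29, 16, 38 and 56 cells with a median of 3496 UMIs, in which *Tnnt2* stood at 2660, 1604, 2412 and 3337 CPM. Both are counted among all cardiomyocyte-like cells. A cluster of 1060, 428, 758 and 543 cells with medians of 890.5 to 1016.5 UMIs is not, since haemoglobin genes were among its leading genes, though it scored nearest to the cardiomyocyte markers and held *Tnnt2* at 13467 to 14300 CPM. Its *Tnni2* stood at 37.3, 73.4, 39.2 and 135 CPM, with overlapping groups.

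In the genome (GRCm38), 4 of the 6 genes lie close together in pairs of a troponin I and a troponin T gene. *Tnni1* (chr1:135779434-135810989, plus strand) lies 25364 bases from *Tnnt2* (chr1:135836354-135852260, plus strand), and *Lad1* is the nearest coding gene of both. *Tnnt1* (chr7:4504570-4516382, minus strand) lies 1922 bases from *Tnni3* (chr7:4518305-4524229, minus strand), which overlaps *Dnaaf3* on the same strand. *Tnni2* lies farther along the chromosome at chr7:142441808-142444410 on the plus strand. *Tnnc1* (chr14:31208312-31211729, plus strand) overlaps *Nisch*, which runs on the other strand. *Nisch* stood at 146 to 196 and *Dnaaf3* at 0.410 to 0.499 CPM in cardiomyocyte-like cells, far below the levels of *Tnnc1* and *Tnni3*.

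The promoter windows of the close pair *Tnnt1* and *Tnni3* are shown because these neighbours differ in their pattern over the classes, and those of *Tnnt2* and *Tnnc1* because each holds an MCAT letter match. Each runs from 250 bases before to 50 bases after a RefSeq start (GRCm38.p6), 5′ to 3′ on the gene's strand. The capitals mark MCAT (CATTCC or GGAATG on the strand shown) and TATA box (TATAAA or TTTATA) letters. The windows lie at chr7:4515926-4516225 (minus strand, *Tnnt1*), chr7:4522479-4522778 (minus strand, *Tnni3*), chr1:135836084-135836383 (plus strand, the upstream of 2 starts of *Tnnt2*) and chr14:31208062-31208361 (plus strand, *Tnnc1*).
Tnnt1: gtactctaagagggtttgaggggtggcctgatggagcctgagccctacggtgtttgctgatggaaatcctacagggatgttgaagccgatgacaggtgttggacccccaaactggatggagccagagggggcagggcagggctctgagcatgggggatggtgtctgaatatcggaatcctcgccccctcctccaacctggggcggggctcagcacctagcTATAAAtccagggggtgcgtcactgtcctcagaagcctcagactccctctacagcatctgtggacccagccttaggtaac
Tnni3: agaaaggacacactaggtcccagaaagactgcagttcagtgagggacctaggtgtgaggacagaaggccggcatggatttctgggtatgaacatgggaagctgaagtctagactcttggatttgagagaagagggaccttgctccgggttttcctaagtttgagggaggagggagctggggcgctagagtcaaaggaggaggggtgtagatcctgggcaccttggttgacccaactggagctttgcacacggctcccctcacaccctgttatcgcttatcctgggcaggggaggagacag
Tnnt2: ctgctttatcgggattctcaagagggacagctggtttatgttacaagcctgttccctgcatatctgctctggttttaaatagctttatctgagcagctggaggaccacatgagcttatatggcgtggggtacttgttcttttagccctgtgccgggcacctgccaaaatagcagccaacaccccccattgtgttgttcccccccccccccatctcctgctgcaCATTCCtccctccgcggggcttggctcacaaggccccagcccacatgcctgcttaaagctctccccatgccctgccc
Tnnc1: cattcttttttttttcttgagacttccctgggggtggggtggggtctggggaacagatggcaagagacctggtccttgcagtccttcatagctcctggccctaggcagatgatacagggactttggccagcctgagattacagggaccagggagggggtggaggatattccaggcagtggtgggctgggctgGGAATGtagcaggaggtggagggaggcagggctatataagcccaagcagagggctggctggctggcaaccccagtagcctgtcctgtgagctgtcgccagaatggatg
The TATA letters of *Tnnt1* begin at position -30 from the start, the MCAT letters of *Tnnt2* at -27 and those of *Tnnc1* at -58, while the *Tnni3* window holds neither. MCAT letters occur in 14.7% and TATA letters in 13.6% of 32851 mouse promoter windows of the same length, so such matches are common and are given as a description. RefSeq windows were matched for 5 of the 6 genes, all but *Tnni2*.

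Among the 5 cardiomyocyte classes, *Tnnt1* and *Tnni2* varied the most and the other 4 troponin genes the least. CPM are taken over all UMIs of a class in a library; the 3′ tag gives 1 UMI per transcript, so levels need no correction for gene length, and a ratio of UMIs is not a ratio of proteins. From the highest class to the lowest, mean levels fell 21.2-fold for *Tnnt1* and 14.3-fold for *Tnni2*, against 1.57-fold for *Tnnc1*, 1.5-fold for *Tnni1*, 1.36-fold for *Tnni3* and 1.29-fold for *Tnnt2*. These orders describe classes drawn from the same cells and carry no test.

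**Figure D1:**
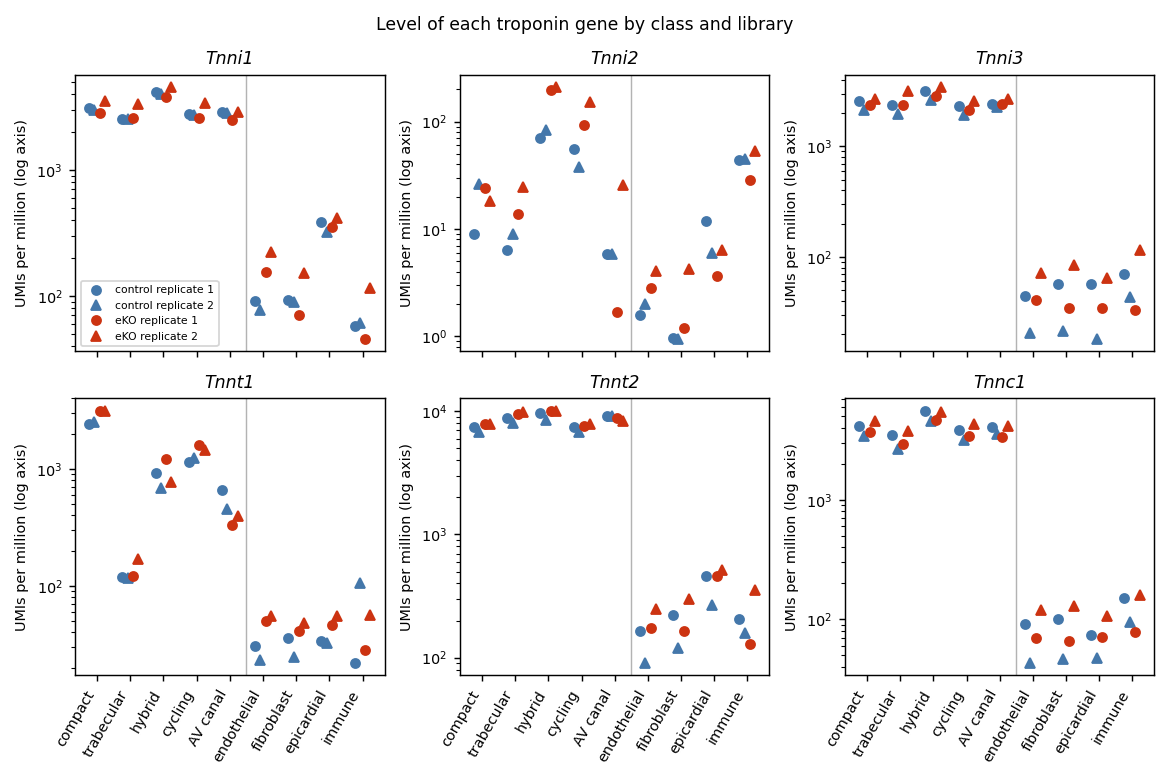
Level of each troponin gene in CPM (log axis) in the 5 cardiomyocyte-like classes and, right of the grey line, in 4 non-myocyte classes; each point is 1 library, blue for control, red for *Ets1* eKO, circles for replicate 1 and triangles for replicate 2. *Tnnt1* runs from a mean of 2787 in compact-like to 132 in trabecular-like cells, while *Tnnt2* stays between 6779 and 10073 in every cardiomyocyte-like class.

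*Tnni1*, the slow skeletal inhibitor, stood at 4145, 3972, 3779 and 4539 CPM in hybrid cells, with a mean of 4109 ± 324 (SD, n = 4 libraries). All 4 of these values lay above every value of the next class, compact-like cells, at 3117 ± 296. Cycling (2875 ± 357), AVC-like (2766 ± 200) and trabecular-like cells (2739 ± 407) followed, and their ranges overlapped with each other and that of cycling cells with compact-like cells. Within each library, the compact-like level was above the cycling level in 4 of 4 libraries.

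*Tnni3*, the cardiac inhibitor, stood at 3197, 2636, 2853 and 3444 CPM in hybrid cells, a mean of 3032 ± 359. Trabecular-like (2467 ± 504), AVC-like (2453 ± 185), compact-like (2449 ± 239) and cycling cells (2236 ± 286) followed, and every neighbouring pair in this order overlapped in range. The hybrid level was above the trabecular-like level in 4 of 4 libraries and the compact-like above the cycling level in 4 of 4. The trabecular-like level exceeded the AVC-like level in only 1 of 4 libraries, so those classes had no order for *Tnni3*.

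*Tnni2*, the fast skeletal inhibitor, was far rarer. It stood at 71.1, 83.7, 198 and 209 CPM in hybrid cells and at 55.1, 37.9, 93.3 and 151 in cycling cells. Compact-like cells held 9.01, 26.0, 24.3 and 18.1, trabecular-like cells 6.32, 9.08, 13.9 and 24.5, and AVC-like cells 5.92, 5.90, 1.69 and 25.8 CPM. Hybrid and cycling cells overlapped in range although the hybrid level was higher in 4 of 4 libraries, and both lay above every compact-like value. The unnamed cluster C4 held 59.0, 106, 150 and 252 CPM, as much as hybrid cells.

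*Tnnt1*, the slow skeletal tropomyosin anchor, was the gene with the clearest order. Compact-like cells stood at 2430, 2500, 3095 and 3125 CPM (2787 ± 374) and trabecular-like cells at 120, 116, 121 and 169 (132 ± 25.3). Cycling (1349 ± 204), hybrid (901 ± 235) and AVC-like cells (461 ± 144) lay between. Each class was above the next in 4 of 4 libraries, and only cycling and hybrid cells overlapped in range. The compact-like class itself was mixed: its larger cluster C1 held 3174, 3241, 4004 and 3604 CPM and its smaller cluster C6 held 468, 421, 347 and 481, so that C6 lay nearer to AVC-like cells.

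*Tnnt2*, the cardiac tropomyosin anchor, was the most abundant of the 6 in every cardiomyocyte-like class, at 9588 ± 701 CPM in hybrid, 9074 ± 803 in trabecular-like, 8870 ± 388 in AVC-like, 7483 ± 491 in compact-like and 7412 ± 457 in cycling cells. AVC-like cells lay above every compact-like value, and no other neighbouring pair was separated in range. *Tnnc1*, the calcium sensor, stood at 5031 ± 503 CPM in hybrid cells, above every compact-like value (3945 ± 488). AVC-like (3792 ± 403), cycling (3708 ± 511) and trabecular-like cells (3210 ± 517) followed with overlapping ranges, and the cycling level was above the trabecular-like level in 4 of 4 libraries. The fast skeletal partners were almost silent: *Tnnt3* stayed between 0.588 and 7.11 CPM over the 5 classes, and *Tnnc2* had 0 to 2 UMIs in any class and library.

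Summed over cardiomyocyte-like cells, the troponin genes took 1.87%, 1.70%, 1.86% and 2.08% of all UMIs. Troponin I UMIs were split into 55.05% ± 1.71 *Tnni1*, 43.7% ± 1.55 *Tnni3* and 1.27% ± 0.602 *Tnni2* (SD, n = 4 libraries). *Tnnt1* made up 27.1% ± 1.73 of troponin T UMIs in compact-like, 15.4% ± 1.60 in cycling, 8.53% ± 1.69 in hybrid, 4.91% ± 1.32 in AVC-like and 1.42% ± 0.186 in trabecular-like cells. For each *Tnnc1* UMI there were 2.49 ± 0.280 troponin T and 1.44 ± 0.0714 troponin I UMIs. The subunits were thus uneven in RNA, with the most UMIs for troponin T in every cardiomyocyte-like class.

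**Figure D2:**
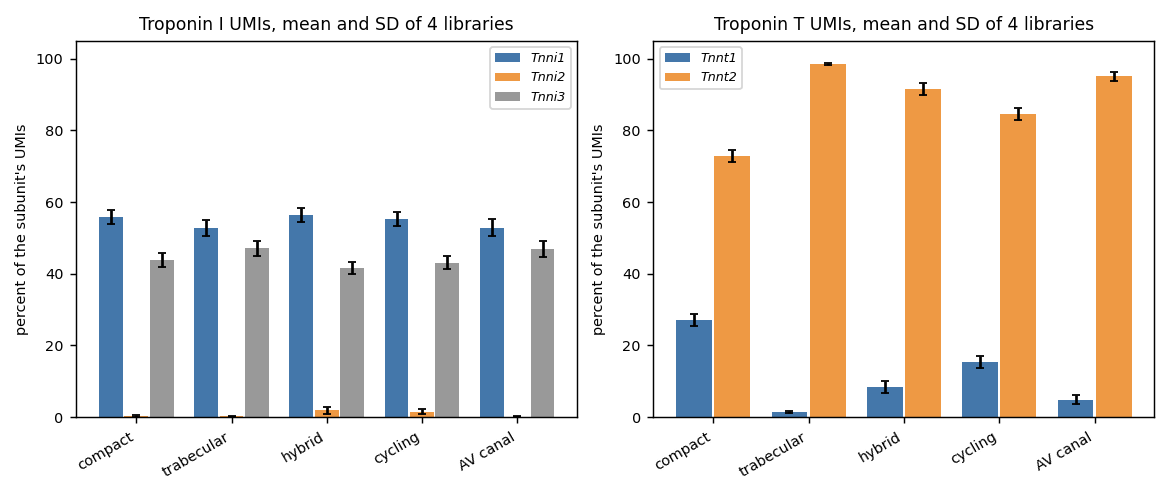
Percent of troponin I UMIs from *Tnni1*, *Tnni2* and *Tnni3* (left) and of troponin T UMIs from *Tnnt1* and *Tnnt2* (right) in each cardiomyocyte-like class; bars are means and error bars SDs of 4 libraries. The troponin I split is nearly the same in all classes (*Tnni1* 52.7% to 56.5%), while the *Tnnt1* share runs from 1.42% in trabecular-like to 27.1% in compact-like cells.

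The ratio of *Tnni1* to *Tnni3*, often read as a sign of how far the fetal troponin I has been replaced, was above 1 in each of the 5 classes in every library. In all cardiomyocyte-like cells it was 1.20, 1.38, 1.21 and 1.26. It was 1.21, 1.40, 1.19 and 1.31 in compact-like, 1.30, 1.51, 1.32 and 1.32 in hybrid, and 1.07, 1.28, 1.09 and 1.05 in trabecular-like cells. Control replicate 2 had the highest ratio in each of these classes, and the groups overlapped. The log2 ratio in *Ets1* eKO minus that in controls was -0.06 in all cardiomyocyte-like, -0.07 in compact-like, -0.08 in hybrid, -0.04 in cycling and -0.12 in trabecular-like cells, with SDs within groups of 0.11 to 0.13, so no difference larger than the spread was seen. AVC-like cells had ratios of 1.18 and 1.25 in controls and of 1.02 and 1.07 in *Ets1* eKO. Here the groups did not overlap, with a log2 difference of -0.23 and an SD within groups of 0.05. An exact two-sided permutation test of 2 against 2 libraries gave p = 0.33, the smallest it can give. Cluster C7 was the exception to a ratio above 1, at 0.964, 0.915, 0.797 and 0.938, and the log2 differences within the AVC-like clusters were smaller than in the class, at -0.12 in C7, -0.09 in C8 and -0.12 in C9. The groups did not overlap in C9 and overlapped in C7 and C8. The part of the cluster mix, with more C7 and fewer C9 cells in *Ets1* eKO, in the class value was not tested.

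The ratio of *Tnnt1* to *Tnnt2* was 0.328, 0.367, 0.394 and 0.398 in compact-like cells, higher in both *Ets1* eKO libraries. The groups overlapped within both compact-like clusters, with log2 differences of 0.08 (SD within groups 0.13) in C1 and -0.26 (SD 0.23) in C6. C6, which is low in *Tnnt1*, gave 274, 132, 202 and 150 compact-like cells, its smallest share in *Ets1* eKO replicate 2. In AVC-like cells the ratio of *Tnnt1* to *Tnnt2* was 0.0726, 0.0493, 0.0377 and 0.0475, lower in both. The log2 differences of the classes were 0.19 (SD within groups 0.08) and -0.50 (SD 0.32), and the exact permutation p was 0.33 for each. The AVC-like value was -0.17 with no doublets removed and -0.89 to -0.95 under the stricter cell filter, without integration and with troponins used in clustering. The compact-like value was 0.30 at double resolution. Within the AVC-like clusters the difference was -0.97 in C7, -0.70 in C8 and 0.72 in the small C9. In trabecular-like (0.0137, 0.0143, 0.0127 and 0.0171) and hybrid cells (0.0951, 0.0806, 0.122 and 0.0766) the groups overlapped. They did not overlap in cycling cells (0.154, 0.181, 0.208 and 0.184), with a log2 difference of 0.23 (SD within groups 0.15). Nor did they in all cardiomyocyte-like cells (0.140, 0.145, 0.181 and 0.152), with 0.22 (SD 0.13). The exact permutation p was again 0.33 for each.

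Between *Ets1* eKO and controls, the change that passed the test in cardiomyocytes was that of *Tnni2*. In hybrid cells its 71.1 and 83.7 CPM in controls, from 227 and 154 UMIs, stood against 198 and 209 CPM in *Ets1* eKO, from 559 and 1346 UMIs. Neither control reached either *Ets1* eKO library, and the mean was 2.63-fold higher. *Tnni2* rose by 1.5 on the log2 scale (SE 0.16, edgeR quasi-likelihood test, Benjamini-Hochberg adjusted p = 0.000511), and it was the 1 gene called, at an adjusted p of at most 0.05, of 10317 tested in hybrid cells (0.00969%). It was also called in the 8 alternatives that kept all 4 libraries and could be run, with log2 values of 1.41 to 1.82 and adjusted p of 2.96e-13 to 0.0136. The 4 fits that left out a library gave 1.40 to 1.60, among them 1.47 without the shallow *Ets1* eKO replicate 2. Such fits, here and below, leave 1 library in a group, which is assumed to vary like those of the other group, and their p-values are no evidence of stability. The alternatives that clustered the cells anew gave a hybrid class of another size, with 723, 353, 562 and 931 cells with no doublets removed, 771, 459, 602 and 874 without integration, 466, 238, 428 and 630 under the stricter filter and 450, 210, 387 and 582 with troponins used in clustering, against 326, 168, 243 and 855. The 5 compact markers summed to 473, 455, 383 and 326 CPM in hybrid cells, lower in both *Ets1* eKO libraries (2 of 5 genes lower in both and 1 higher). The 5 trabecular markers summed to 2267, 1180, 2010 and 4014 CPM. The fibroblast and cushion mesenchyme markers summed there to 24.4, 38.6, 17.0 and 16.3 CPM, lower in both *Ets1* eKO libraries (3 of 8 genes lower in both). The smooth muscle and pericyte markers summed to 3031, 3027, 3226 and 3284 CPM, higher in both (1 of 7 genes higher in both and 2 lower). The part of these shifts in the *Tnni2* value was not tested. At double the clustering resolution no cluster met the hybrid rule, so that alternative gave no value. Fitted values are relative to the median gene (TMM scaling). Scaling by total UMIs alone moved the median of all genes by -0.12 in all cardiomyocyte-like cells and by -0.02 to -0.12 in the classes, so fitted changes lie somewhat above ratios of CPM.

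In the other classes *Tnni2* did not pass the adjusted threshold. Over all cardiomyocyte-like cells the controls had 39.0 and 40.4 CPM and the *Ets1* eKO libraries 82.4 and 125, with a log2 fold change of 1.51 (SE 0.21, edgeR adjusted p = 0.347). The adjusted p fell to 0.05 or below in 6 of 14 alternatives, with log2 values of 1.14 to 1.82 over all 14, and the value without the hybrid cells was 1.42. The values were 1.51 in cycling (adjusted p = 0.346) and 1.48 in trabecular-like cells (adjusted p = 0.262), where the groups also did not overlap. Fits within single clusters were not planned and were added after the data were seen. Within cycling cells, the G2/M cluster C2 held 43.2, 33.4, 84.3 and 118 CPM. There *Tnni2* rose by 1.5 (SE 0.19, edgeR adjusted p = 0.00144), 1 of 2 genes called of 12063 (0.0166%). The larger cycling cluster C0 held 59.5, 39.7, 97.4 and 165 CPM, with 1.51 (SE 0.26, adjusted p = 0.262), and the unnamed cluster C4 had a value of 1.34 (SE 0.26, adjusted p = 0.284). *Tnni2* was called in neither, though its groups did not overlap in either. Hybrid cells outnumbered C4 cells in *Ets1* eKO replicate 2 alone, and the part of this split in the hybrid and C4 values was not tested. Compact-like cells showed 0.45 (SE 0.38, adjusted p = 0.658), and the value there rested on control replicate 1, the lowest of the 4: without it the log2 value was -0.18. In AVC-like cells, with 5 to 58 UMIs in a library, the value was 1.12 (adjusted p = 0.545) and -1.77 without *Ets1* eKO replicate 2. The difference between the changes in hybrid and compact-like cells was 0.97 (SE 0.23, edgeR adjusted p = 0.148), so the hybrid change was not shown to differ from the compact-like one, and none of the 6 genes was called in that test (0.0559% of 12528 genes called, and 1 member and 671 genes at an unadjusted p under 0.05). With either control library left out that difference was 1.62 (replicate 1 omitted) or 0.31 (replicate 2 omitted), and with either *Ets1* eKO library left out it was 1.25 or 0.74, each with 1 library left in a group. It had been chosen after the values were seen.

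**Figure D3:**
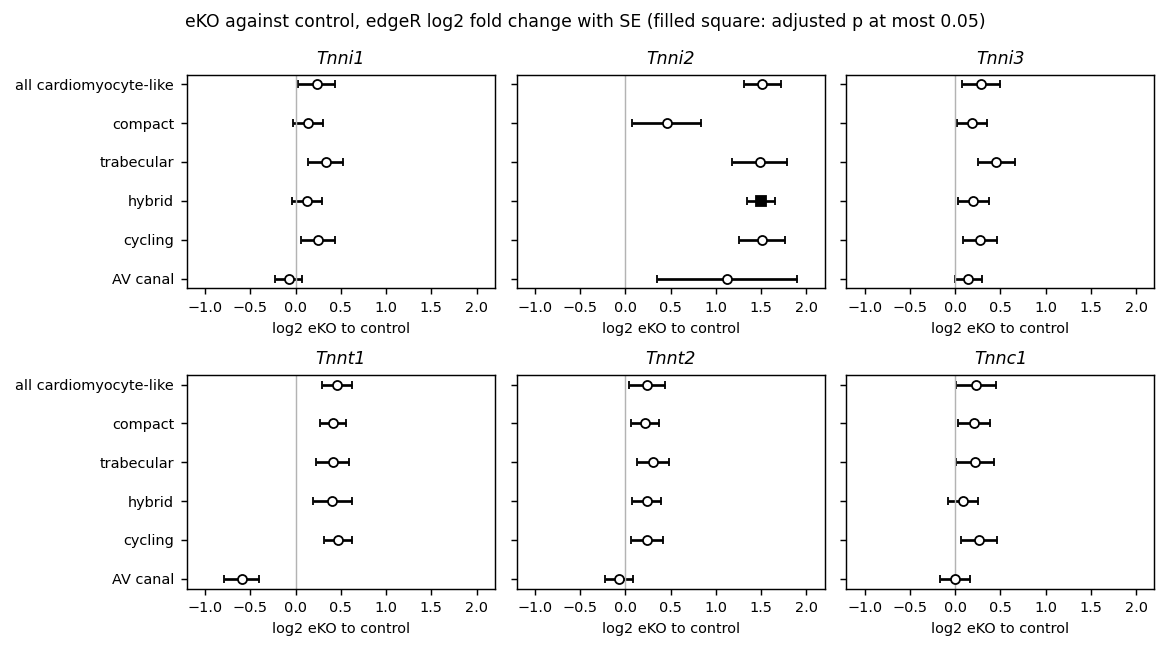
Log2 fold change of each troponin gene, *Ets1* eKO against control, from edgeR on UMI sums (points, with SE bars; filled square where the adjusted p is at most 0.05), in all cardiomyocyte-like cells and in each class. *Tnni2* in hybrid cells is the filled point at 1.5, and *Tnnt1* in AVC-like cells lies at -0.59 while its other 5 values lie between 0.41 and 0.47.

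None of the other 5 troponin genes was called in any cardiomyocyte class. Counting all 6, the members called by edgeR numbered 0 in all cardiomyocyte-like cells (0.00626% of 15976 genes called), 0 in compact-like (0% of 12555), 0 in trabecular-like (0.0334% of 11983), 0 in cycling (0.0071% of 14079) and 0 in AVC-like cells (0.492% of 11777). At an unadjusted p under 0.05 there were 2, 1, 3, 2 and 1 members in these classes, beside 11.7%, 9.39%, 12.5%, 11.3% and 14.3% of all genes. DESeq2 called 1, 0, 0, 0 and 0 members, beside 33, 2, 13, 8 and 94 of the same genes tested. In all cardiomyocyte-like cells 3 of the 6 members (*Tnni2*, *Tnnt1* and *Tnnt2*) did not overlap between the groups, which was also true of 54.8% of the 8260 genes at 10 CPM or more, so such separation says little here. The members' median log2 fold change was 0.26 in all cardiomyocyte-like cells, with 6 of 6 positive, beside a median of 0.01 for all genes tested. It was 0.21 in compact-like, 0.37 in trabecular-like, 0.22 in hybrid and 0.27 in cycling cells, with 6 of 6 positive in each, and -0.04 in AVC-like cells with 2 of 6 positive. These signs were not all stable: over the alternatives *Tnnc1* in hybrid cells reached -0.06 (positive in 9 of 12, and -0.0033 under total-count scaling), *Tnni1* in compact-like cells -0.04 (12 of 13), *Tnnc1* in trabecular-like cells -0.01 (12 of 13) and *Tnni1* in hybrid cells -0.00067 (11 of 12), and *Tnni2* in compact-like and *Tnni1* in all cardiomyocyte-like cells also turned negative once. In AVC-like cells *Tnnc1* was positive in 7 of 14 alternatives (-0.17 to 0.15) and *Tnnt2* in 4 of 14 (up to 0.046). There *Tnni1* was positive in 2 of 14 (up to 0.022) and *Tnni2* in 9 of 10.

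*Tnnt1* in compact-like cells stood at 2430 and 2500 CPM in controls and at 3095 and 3125 in *Ets1* eKO. Both *Ets1* eKO libraries were higher, by 1.26-fold in the mean, and the log2 fold change of 0.41 (SE 0.15) had an edgeR adjusted p of 0.529. In these cells the compact markers summed to 807, 848, 750 and 628 CPM and the trabecular markers to 342, 361, 234 and 303. Both sums were lower in both *Ets1* eKO libraries, with 2 of 5 compact and 3 of 5 trabecular genes lower in both. The atrial markers summed to 1191, 1351, 1751 and 1567 CPM, higher in both, with 1 of the 5 genes higher in both. The part of these shifts in the *Tnnt1* value was not tested. Within the class the value was 0.32 in cluster C1 (SE 0.16, adjusted p = 0.601) and -0.06 in C6 (SE 0.18, adjusted p = 0.940). In cycling cells the levels were 1137, 1229, 1588 and 1444 CPM, with 0.47 (SE 0.16, adjusted p = 0.435). In all cardiomyocyte-like cells the value was 0.46 (SE 0.16, unadjusted p = 0.0246, adjusted p = 0.417), and it stayed between 0.34 and 0.54 in 14 alternatives. The value in hybrid cells (0.41) ran from 0.0043 to 0.70 over the alternatives and that in trabecular-like cells (0.41) from 0.10 to 0.91. *Tnni1* and *Tnni3* in trabecular-like cells had log2 fold changes of 0.33 (SE 0.19) and 0.45 (SE 0.20), with adjusted p of 0.451 and 0.400. For both genes *Ets1* eKO replicate 2 was the highest library, at 3348 and 3176 CPM, and replicate 1 (2559 and 2351) lay near control replicate 1 (2518 and 2357). *Tnnt2* was higher in both *Ets1* eKO libraries in compact-like, trabecular-like, hybrid and cycling cells, by 1.09- to 1.15-fold, with log2 fold changes of 0.22 to 0.31 and adjusted p of 0.451 to 0.694. In AVC-like cells *Tnnt2* was lower in both *Ets1* eKO libraries, at 9154, 9144, 8858 and 8326 CPM, a ratio of means of 0.939. Its clusters did not share this: C7 held 7210, 7128, 7739 and 7335 CPM (ratio 1.05), C8 9505, 9049, 10249 and 9205 (1.05) and C9 11706, 10677, 11231 and 10501 (0.971). C7 gave more and C9 fewer of the AVC-like cells in *Ets1* eKO, and the part of this mix in the class value was not tested. The fitted log2 fold change of *Tnnt2* in AVC-like cells was -0.071. It ran from -0.12 to 0.046 over the alternatives and was positive in 4 of 14, so its direction was not stable. *Tnnc1* overlapped between the groups in all 5 classes, with values of -0.0031 to 0.26. The differences between trabecular-like and compact-like changes were 0.18 for *Tnni1*, 0.24 for *Tnni3* and 0.91 for *Tnni2*, and none of the 6 was called (adjusted p of 0.503 or more; 3 members and 832 genes at an unadjusted p under 0.05; 0.11% of 12717 genes called).

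AVC-like cells went the other way for *Tnnt1*. The levels were 665 and 451 CPM in controls and 334 and 395 in *Ets1* eKO, from 2808, 2295, 988 and 889 UMIs. Both *Ets1* eKO libraries lay below both controls, and the log2 fold change was -0.59 (SE 0.19, edgeR unadjusted p = 0.0118, adjusted p = 0.215). It was negative in 14 of 14 alternatives, from -0.92 to -0.24. Cluster C7 held 491, 451, 295 and 217 CPM with a value of -0.80 (SE 0.18, adjusted p = 0.107), and cluster C8 held 882, 686, 398 and 633 with -0.57 (SE 0.22, adjusted p = 0.599). Within C7 the AVC markers summed to 1525, 1526, 1160 and 933 CPM (4 of 7 genes lower in both *Ets1* eKO libraries, 0 higher). Its atrial markers summed to 11434, 11666, 14062 and 14034 CPM (4 of 5 higher). Its smooth muscle and pericyte markers summed to 1100, 1329, 1776 and 2210 CPM (4 of 7 higher, 1 lower). The part of these shifts in the C7 value was not tested. Cluster C9, with 10 and 29 cells in *Ets1* eKO, held 239, 263, 289 and 560 CPM, and without it the class value was -0.87. The change in AVC-like cells minus that in compact-like cells was -0.99 (SE 0.14, edgeR adjusted p = 0.00641), 1 of 6 members called in that test beside 0.634% of 12934 genes. This comparison was chosen after the values were seen, and it was also called without cluster C9, at -1.27. In the 4 fits that left out a library, with 1 library left in a group, the value ran from -1.27 to -0.70. The larger share of C7 and the higher atrial markers in the *Ets1* eKO libraries moved with this result. So did the compact markers, which summed to 851, 736, 661 and 586 CPM in AVC-like cells (2 of 5 genes lower in both *Ets1* eKO libraries and 1 higher). The trabecular markers, at 360, 261, 565 and 799 CPM, did too (2 of 5 genes higher in both). The cycling markers there summed to 298, 353, 411 and 672 CPM (4 of 10 genes higher in both), and the immune markers to 17.3, 21.4, 28.1 and 76.9 CPM (3 of 8 genes higher in both). The erythroid markers summed to 149, 64.9, 172 and 202 CPM (5 of 7 genes higher in both *Ets1* eKO libraries). The endothelial markers summed to 21.1, 20.3, 22.7 and 27.1 CPM (3 of 8 genes higher in both). Each of these 4 sums was higher in both *Ets1* eKO libraries. The part of these shifts in the result was not tested.

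The other muscle isoform pairs were read beside these values. The ratio of *Myh7* to *Myh6*, the slow and fast cardiac myosin heavy chains, was 1.60 and 1.84 in AVC-like cells of controls and 0.524 and 0.860 in those of *Ets1* eKO, a log2 difference of -1.35 with an SD within groups of 0.37. The ratio of *Myl7* to *Myl2*, the atrial and ventricular regulatory light chains, was 0.881 and 0.966 against 2.21 and 1.90 (1.15, SD 0.13). That of *Myl4* to *Myl3*, the atrial and ventricular essential light chains, was 1.02 and 1.08 against 1.96 and 1.77 (0.83, SD 0.08). The groups did not overlap in any of the 3 pairs, and the exact permutation p was 0.33 for each, the smallest that 2 against 2 libraries can give. Such separation was common: in all cardiomyocyte-like cells it held for the CPM of 54.8% of 8260 genes. No such share was counted for ratios or for single classes. The 3 log2 differences were -0.75, 1.35 and 0.71 in C7, with the signs of the class and no overlap in any pair. They were 0.13, -0.22 and -0.35 in C8 and -0.13, -0.07 and -0.13 in C9, where the groups did not overlap for *Myl4* to *Myl3* alone. In compact-like cells they were -0.11, 0.61 and -0.33, also with no overlap, and the *Myh7* to *Myh6* groups did not overlap either in trabecular-like (-0.36), hybrid (-0.44) and cycling cells (-0.18), nor the *Myl7* to *Myl2* groups in cycling cells (0.49, SD 0.17).

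*Tnni2* UMIs sat in few cells. Of the cardiomyocyte-like cells, 12.0%, 13.9%, 18.9% and 17.3% had any *Tnni2* UMI, and after each cell was thinned to 2000 UMIs the shares were 3.36%, 4.29%, 6.89% and 8.30%. Endothelial-like cells, which should lack the gene, gave 0.368%, 0.440%, 0.265% and 0.701% at that depth. Both *Ets1* eKO libraries were above both controls in cardiomyocyte-like cells, and all 4 shares were well above the endothelial-like ones. Cells with at least 5 *Tnni2* UMIs numbered 86, 64, 144 and 252, or 1.85% (exact 95% interval 1.48% to 2.28%), 2.49% (1.92% to 3.17%), 4.10% (3.47% to 4.81%) and 4.53% (4.0% to 5.11%) of cardiomyocyte-like cells. These intervals cover counting error only. The *Tnni2*-rich cells held 72.8%, 70.5%, 80.2% and 80.0% of all *Tnni2* UMIs of those cells, and the highest single cells held 141, 126, 96 and 86 UMIs.

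Near that threshold there was no gap: 15, 12, 24 and 51 cells had 4 *Tnni2* UMIs and 9, 11, 15 and 32 had 5. At 10 UMIs or more the shares were 1.16%, 1.09%, 2.65% and 2.73%, and at 2 or more after thinning to 2000 UMIs they were 0.938%, 1.57%, 2.32% and 3.68%. In each of these readings the *Ets1* eKO shares exceeded the control shares, and the exact permutation p was 0.33, the smallest possible. Cells with under 5 UMIs held *Tnni2* at 10.9, 12.3, 17.3 and 26.8 CPM, higher in both *Ets1* eKO libraries. That cut is on raw UMIs, so a cell just under it can hold a higher CPM in the shallow *Ets1* eKO replicate 2. The part of depth in these CPM was not tested. The rich cells were found in hybrid cells (2.76%, 5.95%, 7.82% and 6.67%), in cycling cells (2.74%, 2.42%, 5.38% and 6.43%) and in cluster C4 (4.20%, 6.86%, 9.07% and 11.1%). After thinning, the shares with 2 or more UMIs were 1.37%, 3.75%, 6.67% and 6.65% in hybrid cells and 1.38%, 1.53%, 2.90% and 4.84% in cycling cells, while in C4 (2.17%, 4.58%, 4.46% and 8.25%) the groups overlapped. They were rare in compact-like (0.311%, 1.63%, 0.974% and 0.414%) and trabecular-like cells (0 of 624 cells in control replicate 1, with an exact upper bound of 0.589%, then 0.314%, 0.485% and 0.907%). The *Tnni2*-rich cells were also deeper, with medians of 18393, 16708, 17590 and 11085 UMIs against 12486, 13099, 12869 and 7667 in the rest, and the part of depth in which cells passed 5 UMIs was tested by the thinned count only.

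**Figure D4:**
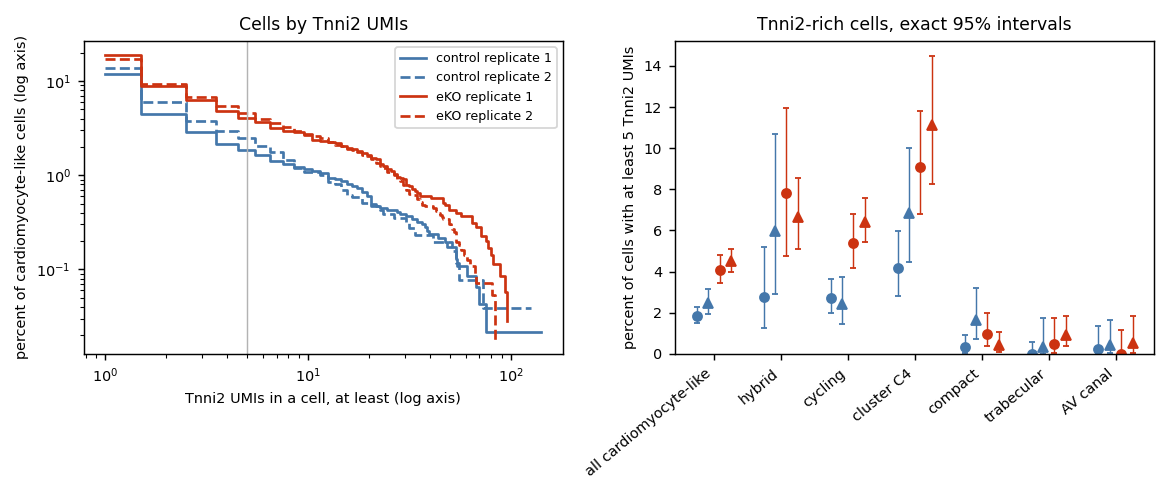
Left, percent of cardiomyocyte-like cells with at least the given number of *Tnni2* UMIs, for each library on log axes, with a grey line at 5 UMIs. Right, percent of cells with at least 5 *Tnni2* UMIs in each class and library, with exact 95% binomial intervals; the *Ets1* eKO libraries reach 4.10% and 4.53% of all cardiomyocyte-like cells and the controls 1.85% and 2.49%.

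What else the *Tnni2*-rich cells held was described without a test, since *Tnni2* chose them. They were set against the rest over all classes together, not within a class. The rest took in most compact-like cells, high in *Tnnt1*, and most trabecular-like cells, high in *Nppa*. The part of class in the differences below was not tested. *Acta1*, the skeletal actin gene, stood at 514, 469, 342 and 493 CPM in rich cells and at 162, 208, 118 and 173 in the rest. *Ckm*, the muscle creatine kinase, stood at 1064, 865, 847 and 909 against 650, 414, 505 and 405, and *Casq1*, the skeletal calsequestrin, at 151, 132, 101 and 134 against 46.6, 79.0, 50.2 and 46.7. *Acta2*, *Tgm2*, *Myl9* and *Lmod3*, a thin filament length factor, were also higher in all 4 libraries. *Nppa* was lower, at 253, 419, 353 and 725 against 1778, 1815, 1750 and 3297 CPM, as were *Slit2*, *Igfbp5*, *Sema3a*, *Ntn1* and *Mest*. Of the other troponins, *Tnnt1* was lower (615, 672, 627 and 498 against 1150, 1107, 1574 and 1359), while *Tnni1*, *Tnnt2* and *Tnnc1* were within 0.21 of the rest on the log2(CPM + 5) scale and *Tnni3* within 0.12. *Hey2* and *Top2a* were at like levels in both (mean differences of 0.18 and 0.01 on that scale). The fast troponin T gene *Tnnt3* was higher in rich cells in all 4 libraries, at 14.5, 10.5, 7.01 and 5.0 against 2.65, 2.85, 3.62 and 2.93 CPM, and *Tnnc2* had 0 UMIs in all of them.

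Outside cardiomyocytes, troponin UMIs were counted as a check for free RNA, which droplets take up from broken cells. *Tnni3*, which non-myocytes should lack, stood in the 4 non-myocyte classes at 0.867% to 4.12% of the cardiomyocyte-like level of the same library, and *Actc1*, the cardiac actin, at 0.894% to 3.14%. Fibroblast-like cells held *Tnni1* at 2.56% to 4.26%, *Tnni3* at 1.01% to 2.98% and *Tnnt2* at 1.58% to 3.49%. Epicardial-like cells held *Tnni1* at 13.2%, 11.0%, 12.9% and 11.6% and *Tnnt2* at 5.74%, 3.53%, 5.47% and 6.04%, beside *Tnni3* at 2.33%, 0.867%, 1.51% and 2.28%. Their ratio of *Tnni1* to *Tnni3* was 6.79, 17.6, 10.3 and 6.44, against 1.20 to 1.38 in cardiomyocyte-like cells. *Myl7* stood there at 899.6, 855, 1154 and 1295 CPM, with 3.07 to 7.39 UMIs for each of *Myl2*.

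Immune-like cells held *Tnni2* at 44.2, 44.5, 28.5 and 53.6 CPM, from 42, 27, 33 and 64 UMIs. That was 113%, 109.96%, 34.6% and 42.8% of the cardiomyocyte-like level, while *Tnni3* in the same cells was at 1.45% to 4.12%. After thinning, 6.57%, 7.59%, 4.76% and 8.76% of immune-like cells had a *Tnni2* UMI, above the endothelial-like shares of 0.265% to 0.701%. The groups overlapped.

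**Figure D5:**
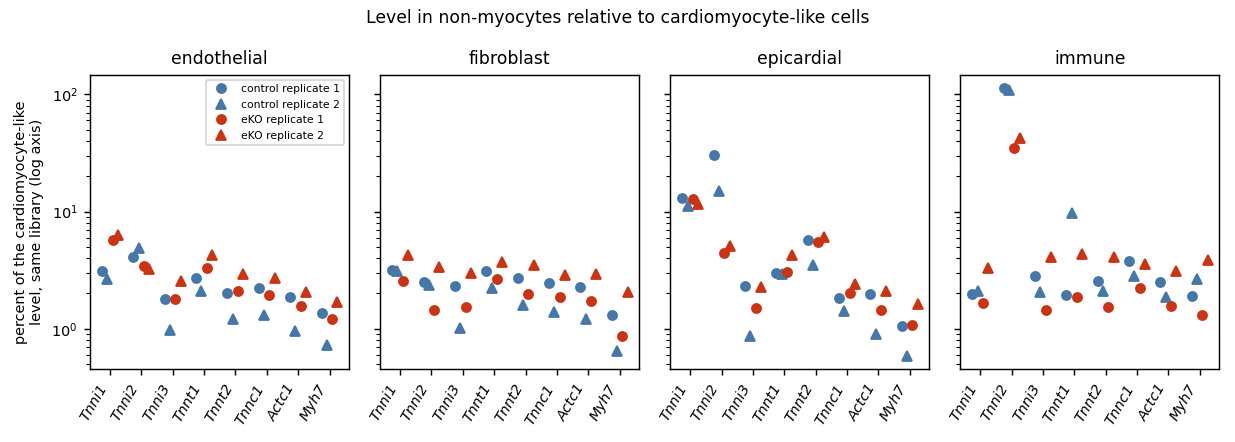
Level of each troponin gene, and of *Actc1* and *Myh7*, in 4 non-myocyte classes as a percent of the level in cardiomyocyte-like cells of the same library (log axis); colours and symbols as for the levels by class. Most genes lie near 1% to 4%, while *Tnni1* in epicardial-like cells lies at 11.0% to 13.2%, *Tnni2* there at 4.46% to 30.5% (from 6 to 14 UMIs in a library, the percent being higher in both controls) and *Tnni2* in immune-like cells at 34.6% to 113%.

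In endothelial-like cells, in which the Cre acts, 2 troponin genes passed the test, in a fit that was not among those planned. The planned fit outside cardiomyocytes took all non-myocytes together and is given below. *Tnni1* stood at 91.0 and 76.9 CPM in controls and at 156 and 225 in *Ets1* eKO, from 1486, 886, 2149 and 3597 UMIs. It rose by 1.25 on the log2 scale (SE 0.19, edgeR adjusted p = 0.0160). *Tnnt1* stood at 30.9, 23.2, 50.5 and 55.6 CPM and rose by 1.04 (SE 0.16, edgeR adjusted p = 0.0160). These were 2 of 6 members called, beside 1.84% of 14296 genes. *Tnni2* (1.03, adjusted p = 0.143), *Tnni3* (0.86, 0.239), *Tnnt2* (0.81, 0.161) and *Tnnc1* (0.57, 0.395) were positive and were not called, and neither was *Actc1* (0.58, adjusted p = 0.304). As a percent of the cardiomyocyte-like level, *Tnni1* was at 3.11%, 2.66%, 5.70% and 6.34% and *Tnnt1* at 2.72%, 2.12%, 3.31% and 4.27%, beside *Tnni3* at 1.80%, 0.984%, 1.79% and 2.55%. The 8 cardiomyocyte markers summed to 740.5, 477, 733 and 913 CPM in endothelial-like cells, and 3 of the 8 were higher in both *Ets1* eKO libraries. The 8 markers of fibroblasts and cushion mesenchyme summed there to 477, 458, 673 and 596 CPM, with 4 of the 8 higher in both, and the 10 cycling markers to 1680, 1783, 1849 and 1952 CPM, with 3 of the 10 higher in both. The compact markers summed to 289, 329, 338 and 374 CPM (1 of 5 higher in both and 1 lower). The atrial markers summed to 47.9, 35.3, 50.1 and 74.4 CPM (3 of 5 higher) and the erythroid markers to 206, 99.5, 211 and 263 CPM (3 of 7 higher). The epicardial sums overlapped, at 48.7, 37.8, 42.2 and 42.8 CPM, with 4 of 7 genes higher in both. The part of free RNA and of these marker shifts in this result was not tested. Neither gene was called without control replicate 2 (adjusted p of 0.145 for *Tnni1* and 0.130 for *Tnnt1*) or with no doublets removed (0.0848 and 0.0746), and without control replicate 1 only *Tnnt1* was.

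Over all non-myocytes the levels of *Tnni1* were 101, 91.9, 127 and 205 CPM and those of *Tnnt1* 32.9, 26.1, 45.2 and 53.1. The log2 fold changes were 0.88 and 0.82 (edgeR adjusted p = 0.255 and 0.189). None of the 6 members was called there (0.018% of 16681 genes called), 3 were at an unadjusted p under 0.05, beside 13.1% of all genes, and DESeq2 called 2, *Tnni1* and *Tnnt1*, among 273 genes.

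The other genes of the thin filament gave the surroundings of these changes. The list left out the 6 members and held 29 genes of actin, tropomyosin, other troponins and their partners. Of these, 23 to 28 were tested in a class, and edgeR called 0 in each of the 5 cardiomyocyte classes and in all cardiomyocyte-like cells. At an unadjusted p under 0.05, 4 were higher and 0 lower in all cardiomyocyte-like cells (*Tpm3*, *Tpm4*, *Cfl2* and *Acta2*) of 28 tested, and 2 were higher (*Tpm2* and *Cfl2*) and 6 lower (*Xirp2*, *Tnni3k*, *Lmod3*, *Acta1*, *Actn2* and *Nrap*) of 25 in AVC-like cells. All genes at that p made up 11.7% and 14.3%. The share of the list was near that background in all cardiomyocyte-like cells and above it in AVC-like cells, where none of these genes passed the adjusted threshold. The list's median log2 fold change was 0.08 in all cardiomyocyte-like cells and -0.07 in AVC-like cells, beside 0.01 and 0.02 for all genes. It was 0.29 in endothelial-like cells, with 21 of 26 genes positive, and 0.15 in non-myocytes, with 23 of 28 positive, beside 0.01 and 0.02 for all genes. *Actc1*, the cardiac actin that troponin sits on, had 0.25 (SE 0.20, adjusted p = 0.558), and *Tpm1*, the main tropomyosin, 0.34 (SE 0.19, adjusted p = 0.455). In hybrid cells these were 0.18 and 0.27, with *Tnnt3* at 0.06 (adjusted p = 0.973), so *Tnni2* was the only thin filament gene called there. In endothelial-like cells 1 gene of the list, the filament end cap *Tmod2*, was called, with a log2 fold change of 1.01 (SE 0.17, edgeR adjusted p = 0.0261).

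Likeness over the 20 sums of class and library, as Pearson correlations of log2(CPM + 1), set each troponin beside other genes of at least 20 CPM. These points share libraries, depth and classes, so the values are a description. *Tnnt1* was nearest to *Vim* (0.95), *Shmt2* and *Pgk1*, a glycolytic enzyme. *Tnni2* was nearest to *Mrpl46* (0.94), *Fdps* and *Cycs*, *Tnni1* to *Ftl1* (0.94), *Timm10* and *Endog*, *Tnni3* to *Chchd2* (0.95), *Fis1* and *Tmem134*, *Tnnc1* to *Tmem199* (0.94), *Adrm1* and *Chchd10*, and *Tnnt2* to *Hsbp1* (0.88), *Eci2* and *Higd2a*. Among the members, *Tnni1* and *Tnnc1* went together the most (0.88), followed by *Tnni3* with *Tnnc1* (0.82) and *Tnni1* with *Tnni3* (0.81), and *Tnnt1* ran against *Tnnt2* (-0.52).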

How the data were processed

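The deposited files were UMI count matrices per library, made by the authors from 10x Chromium 3′ libraries. Cell Ranger 7.1.0, Seurat 4.3.0 and mm10 are named in the submitters' processing notes. The 6 members and all gene lists were chosen with earlier results of these data known, and the rules for naming classes were set after the clusters were seen.

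A cell was kept if it had 200 to 7000 genes and no more than 20% of its UMIs were mitochondrial, 35% ribosomal or 2% from haemoglobin. Doublets were predicted from 2 simulated pairs per cell and 90 neighbours and removed at 0.8% per 1000 cells. Cells were clustered by Leiden (resolution 1, then 0.5 in cardiomyocytes) on 2000 variable genes and 30 or 20 components after a Harmony-type correction (theta 2, 20 neighbours), with troponins left out. A cluster took a class name at a mean marker z of at least 0.5 and 3 or more markers seen in 10% of its cells. A hybrid cluster had no such name, *Hey2* above trabecular, at least 3 trabecular markers above all compact clusters and *Nppa* at least 2 times the highest compact level. Unnamed clusters of low UMI counts were left out, among them 1 nearest to the cardiomyocyte markers.

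UMIs were summed per library and class and compared over all genes by the quasi-likelihood test of edgeR on TMM-scaled libraries, adjusted by Benjamini-Hochberg with a threshold of 0.05. Isoform ratios were compared by exact two-sided permutation tests. For shares of cells, cells were also thinned to 2000 UMIs. Likeness used log2(CPM + 1). Named genes were the 6 members, for each member of at least 10 CPM the 3 genes of at least 20 CPM nearest to it, called genes of the thin filament list with *Actc1*, *Tpm1*, *Tnnt3* and *Tnnc2*, the 3 myosin pairs and *Ets1*. The genes named for *Tnni2*-rich cells, class markers and thin filament genes named at an unadjusted p fall outside this rule and were chosen after their values were seen, as was the minimum of 5 *Tnni2* UMIs. Without the hybrid cells, without cluster C9, the crossed block and the other *Tnni2* minimums were alternatives added after seeing the data. The fits within single clusters were also added then, and the fit in endothelial-like cells was not among the planned ones. Alternatives were other scaling, no filter on low counts, DESeq2, a block for the replicate number, omission of each library, and other cell filters, doublet handling, integration and clustering. Tools were R 4.3.3, edgeR 4.0.16, limma 3.58.1, DESeq2 1.42.0, Python 3.11.15, igraph 0.11.9, scikit-learn 1.9.0, scipy 1.17.1, matplotlib 3.10.9, pandas 2.3.3 and numpy 2.4.6.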

Additional observations from a re-analysis of the deposited data

Results flagged for a closer look

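The log2 change of *Tnnt1* between *Ets1* eKO and control libraries differed between AVC-like and compact-like cells by -0.99 in an interaction fit. The ratio of the *Ets1* eKO to the control mean level of *Tnnt1* was 1.26 in compact-like, 1.23 in trabecular-like and 1.28 in cycling cells, with both *Ets1* eKO libraries above both controls, and 0.654 in AVC-like cells, with both below. For *Tnnt2* that ratio was 1.10 in compact-like, 1.15 in trabecular-like, 1.10 in hybrid and 1.09 in cycling cells, with both libraries above, and 0.939 in AVC-like cells, with both below. Within AVC-like clusters that ratio was 1.05 in C7, 1.05 in C8 and 0.971 in C9. The fitted change of *Tnnt2* in AVC-like cells was negative in the main setting and positive in 4 of 14 alternatives. The differences of AVC-like from trabecular-like, hybrid and cycling cells were not tested. In all cardiomyocyte-like cells 54.8% of 8260 genes did not overlap between the groups, and the share in single classes was not counted.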

How the results depend on the processing

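With 2 pools in each group, the counts of called members moved with the setting, and so did those of all genes, given in brackets as called of tested. In all cardiomyocyte-like cells 1 member was called, against 0, under DESeq2 (33 of 15976), the replicate block (15), total-count scaling (6) and no low-count filter (345 of 23938); leaving out a library gave 0 to 1. In trabecular-like cells the block (21 of 11983), no filter (138 of 19949) and no removal of doublets (15 of 12423) gave 1, and leaving out a library 0 to 6, the 6 without *Ets1* eKO replicate 1 (1330 of 12482). In cycling cells total-count scaling (8 of 14079) and the block (20) gave 1, and leaving out a library 0 to 5, the 5 without *Ets1* eKO replicate 1 (2343 of 14509). Leaving out a library gave 0 to 1 in compact-like cells (8 to 841 genes), 1 to 2 in hybrid (16 to 64) and 0 to 1 in AVC-like cells (36 to 121), where no filter gave 2 (579 of 19857). In non-myocytes no filter (483 of 24637) and DESeq2 (273 of 16681) gave 2 and leaving out a library 0 to 3 (25 to 460). In endothelial-like cells, against 2, no filter gave 6 (1147 of 22357), no removal of doublets 0 (187 of 14447) and leaving out a library 0 to 6, the 6 without *Ets1* eKO replicate 1 (1795 of 14755). For differences between classes leaving out a library gave 0 to 2 (trabecular-like, 28 to 39 genes), 1 to 3 (AVC-like, 36 to 177) and 0 to 1 (hybrid, 1 to 16), each against compact-like cells. Where many genes were called, the members' counts are no result about the members, and the cause was not tested.

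Without *Ets1* eKO replicate 2 the log2 value turned negative for *Tnni1* in all cardiomyocyte-like cells (-0.0044 to 0.44 over the libraries left out), *Tnnc1* in trabecular-like cells (-0.013 to 0.43) and *Tnni2* in AVC-like cells (-1.77 to 2.13), for *Tnnc1* in non-myocytes (-0.012 to 1.15), and for the AVC-like minus compact-like difference of *Tnni2* (-2.34 to 1.95). Without control replicate 1, *Tnni2* in compact-like cells turned to -0.18 (to 1.31 without control replicate 2) and the hybrid minus compact-like difference of *Tnnt1* to 0.22 (-0.37 to 0.31 over the libraries). The trabecular-like minus compact-like difference of *Tnnt1* ran from -0.29 to 0.21, the latter without *Ets1* eKO replicate 1. A sign turn with both values under their SE was counted as no change.

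The *Tnni1* to *Tnni3* difference in AVC-like cells was -0.16 with no doublets removed, -0.17 without integration and -0.15 with troponins used in clustering. The *Tnnt1* to *Tnnt2* difference there was -0.17 with no doublets removed, -0.89 under the stricter cell filter, -0.94 without integration and -0.95 with troponins used in clustering. At double resolution, which gave no hybrid class, it was 0.30 in compact-like and 0.40 in trabecular-like cells.

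The labels do not say that a replicate number marks a shared litter or day, and same-numbered libraries did not deviate together (r from -0.16 to -0.01). The replicate block kept *Tnni2* in hybrid cells at 1.49. In non-myocytes the block with the numbers crossed called 5 members and 683 of 16681 genes, against 0 members and 22 genes with the block as numbered and 3 genes without a block. Among the log2 fold changes of members under alternatives, 567 stayed on their side of the threshold and either kept their direction or turned sign with both values under their SE, 55 passed it anew, 5 lost it and 5 turned sign with a value over its SE.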
